A study of Mus musculus with 190 samples.

Results

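The comparison described here sets whole blood of conventionally housed mice on day 2 against that of specific-pathogen-free (SPF) mice. Its members are the 10 libraries of day 2 and the 10 SPF libraries, 20 of the 190 libraries of the series. All mice were male wild-type NC/Nga, an inbred strain that can develop skin inflammation resembling atopic dermatitis in conventional housing. The day 2 group is the first of the conventional cohorts, with 10 libraries. The SPF group has 5 libraries of day 16 and 5 of day 44, numbered 1 to 5 on each day. The visible dermatitis score was 0 in all 20. About 0.1 mL of blood per sample was drawn at the tail vein (EDTA as anticoagulant), per the labels' protocols. No SPF library of day 2 was analysed here. Housing, cohort and sampling day, and with the day the age of the mice, therefore cannot be told apart in any value below. Neither an age nor whether an SPF number marks the same mouse on both days is given in the labels used here, so the 10 SPF libraries may not be 10 independent mice, and p-values measure the spread between libraries only.

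Whole blood RNA comes mostly from reticulocytes, platelets and white cells. Endochondral bone grows where chondrocytes of the growth plate enlarge, deposit type X collagen and are replaced by osteoblasts, which secrete type I collagen and mineral-binding proteins. In young mice, fetal growth genes such as Igf2 and H19 are shut down in most tissues, and newly made B cells leave the marrow for the follicles. In bulk blood, a change in the number of cells of a type and in RNA per cell, as in fewer cells or less RNA per cell, cannot be told apart.

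Total expected counts ran from 25093100 to 50553100 per library on day 2 and from 22305900 to 47998100 in the SPF libraries. Globin genes took 2.70% to 6.57% of the counts on day 2 and 2.03% to 5.11% on SPF day 44. SPF day 16 replicate 3 stood apart, with 45.3% of its counts on globin genes, although globin RNA and rRNA were depleted in the protocol. Its share on rRNA genes was 0.463%, against at most 0.00472% on day 2 and 0.00547% on SPF day 44. The mean globin share was 4.00% ± 1.09 on day 2 and 7.49% ± 13.3 in the SPF libraries (SD, n = 10 each). None of 5 composition measures (total counts and the shares of globin, mitochondrial rRNA, Rn7s and the 10 largest genes) differed between day 2 and the SPF libraries beyond their spread (two-sided permutation tests of 100000 resamples, lowest adjusted p = 0.92). Levels are in CPM, read counts scaled to a common depth, on TMM-scaled library sizes. Differences are edgeR log2 values ± SE, day 2 minus SPF, and calls are genes with an adjusted p below 0.05 (Benjamini-Hochberg, over 15383 genes tested).

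Bone and collagen genes, among them Col10a1, which rose most by the rule for named genes, were higher in blood on day 2, and leaving out any 1 library did not end the calls of Col10a1, Bglap, Ibsp, Mmp13 or Col1a1. The complement receptor gene Cr2 of B cells and the class II gene H2-DMb1 were lower, and the muscle filament gene Neb was higher. Against the mean of both SPF days, 563 genes were called on day 2 (3.66% of those tested), of which 399 (2.59%) were higher and the others (1.07%) lower. The median difference over all genes was −0.02. At an unadjusted p under 0.05 there were 2813 genes. In 35 genes (0.228%) every day 2 library was above every SPF library, and in 7 (0.0455%) every day 2 library was below. Against SPF day 16 alone 97 genes were called (81 higher, 16 lower, 0.631%). Against SPF day 44 alone 1075 were called (590 higher, 485 lower, 6.99%). Between the SPF days themselves 97 genes were called in SPF day 44 minus SPF day 16 (41 higher, 56 lower, 0.631%), and this count was 0 without any 1 of 5 SPF libraries (day 16 replicates 4 and 5, day 44 replicates 1, 2 and 5) and 576 without SPF day 16 replicate 1. The count against all SPF was 339 without SPF day 44 replicate 2. The count against SPF day 16 was 53 without SPF day 16 replicate 2, 40 without SPF day 16 replicate 4 and 60 without day 2 replicate 3. The count against SPF day 44 was 302 without SPF day 44 replicate 2 and 418 without replicate 5. On the deposited TPM values with limma, where the median over all genes shifted to −0.25 against SPF day 44, 1004 genes were called against that day but split 20 higher and 984 lower. The same scale gave 8 calls against all SPF (7 higher, 1 lower), 4 against SPF day 16 (4 higher, 0 lower) and 1537 between the SPF days (1536 higher, 1 lower).

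Most of the bone genes tested were higher in blood on day 2. Of 13 bone genes 12 passed the filter on low counts, and 9 of these 12 rose while none fell, against 2.59% and 1.07% of all genes. Their median difference was 2.51 against −0.02 over all genes. A gene that is near 0 in SPF libraries passes the filter through the day 2 libraries, so the count describes these members and is no test of the list. The number that rose was 7 against SPF day 16 alone and 9 against SPF day 44 alone, where 0.527% and 3.84% of all genes rose. On the TPM scale with limma, 5 members were tested and 1 rose.

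Col10a1, which encodes type X collagen of hypertrophic chondrocytes (ENSMUSG00000039462.5, GRCm39 chromosome 10, 34265977 to 34273081, plus strand), had 5 to 21.7 CPM, with a median of 8.78, over the 10 day 2 libraries. The SPF libraries had 0.395, 1.69, 0.903, 1.73 and 0.574 CPM on day 16 and 0, 0.0855, 0.108, 0.127 and 0.0408 CPM on day 44. Every day 2 library was above every SPF library, and every SPF day 16 library was above every SPF day 44 library. The difference was 5.33 ± 0.38 (adjusted p = 1.1e-07), made up of 3.40 ± 0.42 against SPF day 16 (adjusted p = 0.0017) and 7.26 ± 0.59 against SPF day 44 (adjusted p = 1.2e-06). Col10a1 also differed between the SPF days, by −3.85 ± 0.65 in SPF day 44 minus SPF day 16 (adjusted p = 0.031), a call lost without any 1 of 5 SPF libraries (day 16 replicates 4 and 5, day 44 replicates 1, 2 and 5), where no gene was called. Gene length is the same in each library, but no level here is corrected for it, so levels are compared between libraries and not between genes.

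Among osteoblast genes, Ibsp, the mineral-binding bone sialoprotein, had 2.19 to 9.71 CPM, with a median of 6.43, on day 2. Its SPF values were 0.593, 0.778, 0.226, 1.33 and 0.415 CPM on day 16 and 0.840, 0.877, 0.0723, 0.952 and 1.06 CPM on day 44, all below the lowest day 2 library. Ibsp differed by 3.06 ± 0.36 (adjusted p = 5.3e-05), and the 2 SPF days did not differ beyond their spread (0.21 ± 0.53, adjusted p = 0.94). Bglap, which encodes osteocalcin, had 0.925 to 5.99 CPM, with a median of 3.39, on day 2, against 0, 0.130, 0.271, 0.275 and 0.478 CPM on SPF day 16 and 0.298, 0, 0.145, 0.0952 and 0 CPM on SPF day 44. All day 2 libraries were again above all SPF libraries, and the difference was 4.31 ± 0.56 (adjusted p = 0.00013). Its neighbour Bglap2 is a near-identical copy and differed by 4.41 ± 0.60. Reads may be split between both, so their separate values are uncertain.

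Mmp13, a collagenase of hypertrophic chondrocytes and osteoblasts, had 3.84 to 12.8 CPM, with a median of 8.14, on day 2. It had 2.04, 2.27, 1.17, 3.61 and 2.20 CPM on SPF day 16 and 2.11, 1.30, 1.45, 2.92 and 2 CPM on SPF day 44, again without overlap, and differed by 2.00 ± 0.24 (adjusted p = 3.3e-05). Dmp1, an osteocyte matrix protein, was counted 229 times over the 10 day 2 libraries and 7 times over the 10 SPF libraries. Phex, a peptidase of osteoblasts and osteocytes, rose by 3.03 ± 0.44, and Sp7, the osteoblast transcription factor osterix, by 3.62 ± 0.58. Alpl, the mineralising alkaline phosphatase, rose by 1.5 ± 0.41 and Ctsk, the collagen-degrading protease of osteoclasts, by 1.01 ± 0.18. The remaining 3 members tested were not called: Spp1 (osteopontin) at 0.65 ± 0.85, Acp5 (an osteoclast phosphatase) at 0.10 ± 0.11 and Runx2 (a transcription factor that lymphocytes and dendritic cells also use) at −0.12 ± 0.18.

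**Figure D1:**
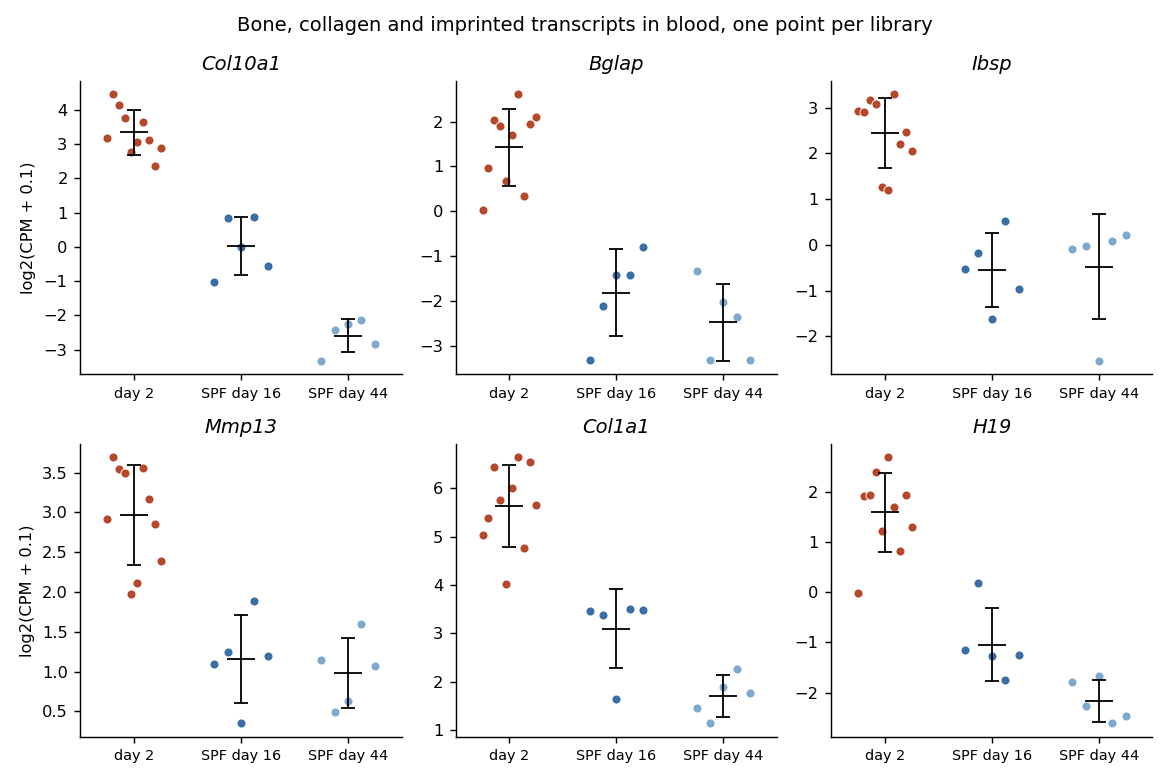
Level of 6 genes in each library, as log2(CPM + 0.1) on the vertical axis, for day 2 (10 libraries), SPF day 16 (5) and SPF day 44 (5). Bars give the mean and SD. In Col10a1, Bglap, Ibsp, Mmp13 and Col1a1 all day 2 points lie above all SPF points, and in H19 the lowest day 2 library lies below the highest SPF library.

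The promoters of 4 of these genes are shown because their transcripts rose together and because Runx2, which binds the core motif ACCACA, drives bone genes in mouse. The windows run from 250 bases before to 50 after the start of each gene, from RefSeq on GRCm38.p6, a build other than the GRCm39 of the deposited tables, so their coordinates are not to be set beside those above. Capitals mark ACCACA or, on the other strand, TGTGGT.
Col10a1, chr10:34389731-34390030, plus strand: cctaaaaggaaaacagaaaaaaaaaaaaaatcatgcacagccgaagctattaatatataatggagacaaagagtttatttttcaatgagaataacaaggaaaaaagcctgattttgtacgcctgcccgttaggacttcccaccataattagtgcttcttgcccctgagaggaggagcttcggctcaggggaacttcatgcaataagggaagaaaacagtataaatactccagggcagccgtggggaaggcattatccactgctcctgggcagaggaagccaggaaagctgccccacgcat
Bglap, chr3:88384417-88384716, minus strand: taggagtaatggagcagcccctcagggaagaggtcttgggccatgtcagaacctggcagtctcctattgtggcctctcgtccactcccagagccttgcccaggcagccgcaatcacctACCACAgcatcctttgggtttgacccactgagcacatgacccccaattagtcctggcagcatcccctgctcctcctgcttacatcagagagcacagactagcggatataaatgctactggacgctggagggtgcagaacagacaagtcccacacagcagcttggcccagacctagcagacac
Ibsp, chr5:104299037-104299336, plus strand: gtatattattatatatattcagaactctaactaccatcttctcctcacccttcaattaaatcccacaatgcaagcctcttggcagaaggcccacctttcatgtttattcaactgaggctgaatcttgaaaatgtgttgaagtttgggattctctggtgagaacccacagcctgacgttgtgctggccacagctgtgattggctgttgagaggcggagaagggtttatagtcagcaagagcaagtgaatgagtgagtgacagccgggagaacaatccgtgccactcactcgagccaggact
Mmp13, chr9:7272264-7272563, plus strand: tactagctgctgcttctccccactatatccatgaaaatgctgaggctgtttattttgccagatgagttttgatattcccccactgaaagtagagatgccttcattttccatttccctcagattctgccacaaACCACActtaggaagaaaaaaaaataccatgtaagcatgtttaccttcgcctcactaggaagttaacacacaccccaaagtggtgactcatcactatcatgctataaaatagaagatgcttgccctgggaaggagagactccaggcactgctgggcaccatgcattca
The Bglap and the Mmp13 window held 1 match each and the Col10a1 and Ibsp windows none. Of all 32851 promoter windows of this length 16.8% held at least 1. A match is only a description of the sequence, and no match says only that these letters are not in this window.

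Connective tissue collagens rose with the bone genes. Of 17 collagen and matrix genes, all of which were tested, 12 rose and none fell, against 2.59% and 1.07% of all genes, with a median difference of 2.16. The number that rose was 5 against SPF day 16 and 12 against SPF day 44, where 0.527% and 3.84% of all genes rose. On the TPM scale with limma, 8 members were tested and 2 rose. Col1a1, a chain of type I collagen, had 16.1 to 99.8 CPM, with a median of 52.2, on day 2, against 11, 10.3, 3.02, 11.2 and 11.1 CPM on SPF day 16 and 2.66, 2.10, 3.61, 4.70 and 3.30 CPM on SPF day 44. No day 2 library overlapped an SPF library. It differed by 3.36 ± 0.34 (adjusted p = 3.1e-05), and Col1a2, the other chain, by 3.25 ± 0.34. Col12a1, a fibril-associated collagen, rose by 3.48 ± 0.39, Lum (lumican, which spaces collagen fibrils) by 3.15 ± 0.42, Col5a2 by 2.92 ± 0.37 and Col22a1, a collagen of tissue junctions, by 3.32 ± 0.44. Members of the same list that were not called include Col6a1 at 0.91 ± 0.83, Col6a3 at 0.11 ± 0.26 and Fbn1 (fibrillin) at 1.19 ± 0.56. The day 2 libraries differed among themselves. Col1a1 was highest in replicates 7, 9 and 3 (99.8, 92.9 and 86.7 CPM) and lowest in replicate 5 (16.1). Col10a1 was highest in replicates 2 and 3 (21.7 and 17.5) and lowest in replicate 9 (5). Replicate 9 was thus next to the highest in Col1a1 and the lowest in Col10a1.

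Other large rises by the same rule were those of Gxylt2, a xylosyltransferase that acts on Notch, and Gpr153, an orphan receptor. Gxylt2 was counted 449 times on day 2 and 17 times in the SPF libraries, and Gpr153 465 times on day 2 and 38 times in the SPF libraries. Tcim, a small regulator of transcription, had 1.12 to 2.67 CPM, with a median of 2.11, on day 2, against 0.988, 0.551, 0.587, 0.942 and 0.606 CPM on SPF day 16 and 0.461, 0.278, 0.145, 0.635 and 0.388 CPM on SPF day 44, without overlap (1.90 ± 0.22, adjusted p = 3.1e-05). Of 18 cartilage genes 10 passed the filter and 2 rose, against 2.59% of all genes. These were Col10a1 and Col9a1, a chain of type IX collagen counted 393 times on day 2 and 15 times in the SPF libraries. Acan, which encodes the main cartilage proteoglycan aggrecan, was not called (−1.15 ± 1.44) and neither was Col2a1 (1.73 ± 0.91) or Comp (2.08 ± 0.60). With all 18 genes tested, 6 rose in edgeR without the filter and 7 in DESeq2. Of all 28870 genes tested there, 426 and 641 rose.

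Another set of solid tissue transcripts was highest in single libraries of both groups. Summed over the 16 genes of the skeletal muscle list, the level was 20.1 to 564 CPM, with a median of 33.5, on day 2 and 14.2 to 353 CPM, with a median of 16.6, in the SPF libraries. Day 2 replicate 10 (564 CPM), SPF day 44 replicate 3 (353) and SPF day 16 replicates 5 (163.4) and 1 (122.5) were highest, followed by day 2 replicate 3 (105.8). Car3, a carbonic anhydrase of muscle and fat, carried 97.5% of the sum in day 2 replicate 10, where 6 of the 16 members were at 0. Acan was at 89.2 CPM in day 2 replicate 10, 28 in day 2 replicate 3, 224 in SPF day 44 replicate 3, 72.9 in SPF day 16 replicate 5 and 44.8 in SPF day 16 replicate 1. The highest value in the other 15 libraries was 14.7 CPM. The imprinted gene Peg3, Spp1 and the desmosome gene Dsp were high in the same libraries. Summed over 18 keratinocyte genes, the level was 2.39 to 69.99 CPM, with a median of 7.87, on day 2 and 2.47 to 59.6 CPM, with a median of 4.22, in the SPF libraries, and the keratinocyte gene Lce1a1 was at 0 in all 20. Over the 18 cartilage genes it was 16.7 to 155.4 CPM, with a median of 45.1, on day 2 and 3.83 to 272 CPM, with a median of 7.81, in the SPF libraries (9.39 on day 16 and 4.53 on day 44). In each of these 3 sums the day 2 median was above the SPF median, and the groups overlapped.

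The 4 libraries of the highest muscle sums were left out in an alternative chosen after seeing the data. These were day 2 replicate 10, SPF day 16 replicates 1 and 5 and SPF day 44 replicate 3. Day 2 replicate 3, next in the muscle sum, was kept. In cartilage genes the SPF libraries left out had the highest SPF sums (65.5, 93.4 and 272 CPM). The same held for bone genes (108.7, 122.2 and 213 CPM). Leaving them out lowers the SPF level of both lists, so the counts here are no test of these lists. The skeletal calls were at least as many as with all 20 libraries. Of 12 bone genes 10 rose, of 17 collagen genes 12 and of 10 cartilage genes 9. Of all 15724 genes tested 591 were called, 475 of them higher. The cartilage count was 6 without SPF day 44 replicate 3 alone, where 502 of all 15609 genes tested rose. Col10a1, Bglap, Ibsp and Mmp13 were not raised in SPF day 44 replicate 3, where they stood at 0.108, 0.145, 0.0723 and 1.45 CPM. The bone sum of this library was the highest of the SPF libraries, and Spp1 carried 79.4% of it. Acan carried 82.2% of its cartilage sum. Over the 13 bone genes the sum was 58.3 to 323 CPM on day 2, with a median of 94.9. In the SPF libraries it was 35.9 to 213 CPM, with a median of 43.3, so the groups overlapped. Against SPF day 16 alone the count of all genes was 42 without the 4 libraries, against 97 with them.

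**Figure D2:**
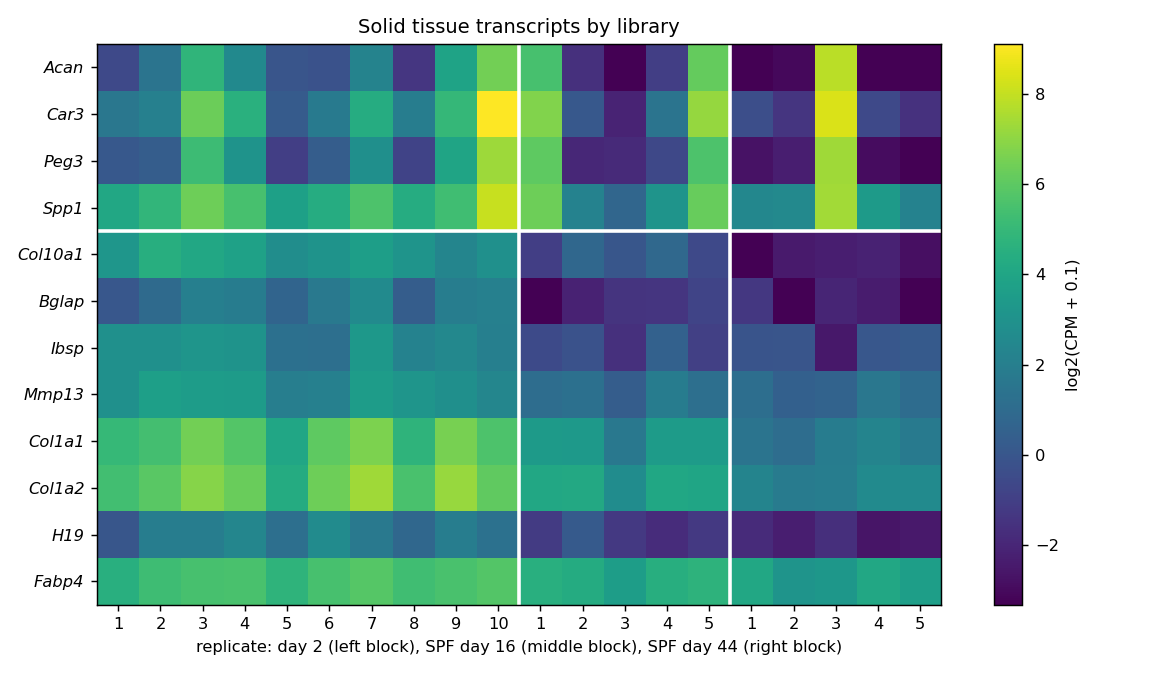
Level of 12 solid tissue genes (rows) in each of the 20 libraries (columns: day 2, SPF day 16, SPF day 44), with colour as log2(CPM + 0.1). Acan, Car3, Peg3 and Spp1, above the line, are high in day 2 replicates 10 and 3, SPF day 16 replicates 1 and 5 and SPF day 44 replicate 3. Among the genes below the line, Col10a1 and Col1a1 separate day 2 from the SPF libraries.

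Imprinted growth genes rose in part. Of 17 listed genes that were measured, 14 passed the filter. Of these 14, 4 rose and none fell (median 0.46), against 2.59% and 1.07% of all genes. As for bone, the count describes these members and is no test of the list. The number that rose was 1 against SPF day 16 alone and 5 against SPF day 44 alone, where 0.527% and 3.84% of all genes rose. H19, a non-coding RNA expressed from the maternal allele, had 0.892 to 6.35 CPM, with a median of 3.40, on day 2, against 0.351, 1.04, 0.316, 0.196 and 0.319 CPM on SPF day 16 and 0.190, 0.107, 0.217, 0.0635 and 0.0816 CPM on SPF day 44. Day 2 replicate 1, the lowest of its group, overlapped SPF day 16 replicate 2. H19 differed by 3.76 ± 0.35 (adjusted p = 1.2e-06), by 2.87 ± 0.43 against SPF day 16 and by 4.65 ± 0.50 against SPF day 44. Igf2, the growth factor next to it, had 2.53 ± 0.984 CPM on day 2 (SD, n = 10), against 1.13 ± 0.352 on SPF day 16 and 0.597 ± 0.308 on SPF day 44 (n = 5 each), and rose by 1.62 ± 0.27 (adjusted p = 0.00087). Grb10, an adaptor that restrains insulin signalling, rose by 1.48 ± 0.35 and Mest, a growth-linked hydrolase, by 0.61 ± 0.13. The other 10 members were not called, among them Peg3 at −0.27 ± 1.42, Plagl1 at 0.91 ± 0.72 and Cdkn1c at 1.07 ± 0.35.

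Of 8 adipocyte and endothelial genes tested (14 in the list), 2 rose, against 2.59% of all genes. Fabp4, the fatty acid-binding protein of fat and capillary endothelium, had 22.9 to 56.5 CPM, with a median of 44.7, on day 2, against 23.1, 19.98, 12, 22.4 and 25.9 CPM on SPF day 16 and 17.5, 8.66, 9.58, 17.3 and 12.2 CPM on SPF day 44. The lowest day 2 library lay inside the SPF day 16 range and the others lay above all SPF libraries. The difference was 1.36 ± 0.17 (adjusted p = 9.8e-05). Lyve1, a hyaluronan receptor of lymphatic endothelium and macrophages, rose by 0.64 ± 0.17 (adjusted p = 0.036), a call lost without any 1 of 10 of the 20 libraries. Of 8 keratinocyte genes tested (18 in the list) 3 rose, against 2.59% of all genes. All 3 were at very low counts, so their number is no test of the list. Krt17, a keratin of hair follicles, ranged over 0.0915 to 0.706 CPM on day 2 and 0 to 0.214 CPM in the SPF libraries. Krt5, a basal keratin, ranged over 0.123 to 1.41 CPM on day 2 and 0 to 0.408 CPM in the SPF libraries. Krt25, a keratin of the hair root sheath, ranged over 0 to 0.683 CPM on day 2 and 0 to 0.191 CPM in the SPF libraries, so that day 2 and SPF libraries overlapped in all 3. Without day 2 replicate 3, or without replicate 10, 1 of them was called.

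Of 9 skeletal muscle genes tested (16 in the list) 1 rose and 1 fell, where 2.59% and 1.07% of all genes did. Neb, which encodes the giant filament protein nebulin, had 6.12 to 12.4 CPM, with a median of 9.60, on day 2, against 4.08, 3.41, 6.91, 4.40 and 4.31 CPM on SPF day 16 and 4.88, 4.19, 4.34, 4.06 and 4.45 CPM on SPF day 44. The SPF days did not differ beyond their spread (adjusted p = 0.95), and the groups overlapped only where day 2 replicate 10 (6.12 CPM) lay below SPF day 16 replicate 3 (6.91). Neb differed by 1.09 ± 0.13 against all SPF (adjusted p = 2.6e-05), by 1.06 ± 0.16 against day 16 and by 1.13 ± 0.16 against day 44. It did not follow Car3, since day 2 replicate 10, the highest in Car3, was the lowest of its group in Neb. Tnni2, a fast muscle troponin, fell by 0.83 ± 0.20 (adjusted p = 0.017).

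Genes of the B lineage were called in both directions. Over all genes tested, 2.59% rose and 1.07% fell against all SPF, and 3.84% rose and 3.15% fell against SPF day 44. Against SPF day 16 alone 0.527% rose and 0.104% fell. Of 11 genes of immature and transitional B cells tested (12 in the list), 3 rose and none fell (median 0.33), and the count was 5 without SPF day 16 replicate 1 and 6 without SPF day 16 replicate 3. None was called against SPF day 16 alone, and 5 rose and 1 fell against SPF day 44 alone. Rag1, which cuts antigen receptor genes in lymphocyte precursors, had 1.21 to 3.79 CPM, with a median of 2.32, on day 2, against 1.01, 0.195, 0.993, 0.942 and 2.04 CPM on SPF day 16 and 0.461, 0.577, 0.542, 0.730 and 0.530 CPM on SPF day 44. All day 2 libraries were above SPF day 44, and SPF day 16 replicate 5 reached into the day 2 range. Rag1 differed by 1.69 ± 0.27 (adjusted p = 0.00045), by 1.26 ± 0.34 against SPF day 16 (adjusted p = 0.1) and by 2.12 ± 0.35 against SPF day 44 (adjusted p = 0.0015). Sox4, a transcription factor of B cell precursors, rose by 0.63 ± 0.11 and Cd93, a surface marker of transitional B cells, by 0.40 ± 0.08. Ighm, the IgM heavy chain, was not called (0.02 ± 0.11). On the TPM scale 4 members were tested, none was called and their median was −0.11.

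Of 17 genes of mature B cells, all tested, 3 fell and none rose (median −0.12), against 1.07% and 2.59% of all genes. Against SPF day 16 alone 2 fell, and against SPF day 44 alone 1 rose and 1 fell. The difference between this list and that of immature B cells was not tested. Cr2, the complement receptor CD21 of follicular and marginal zone B cells (ENSMUSG00000026616.17, GRCm39 chromosome 1, 194819119 to 194859024, minus strand), had 72.9 to 94.1 CPM, with a median of 84.4, on day 2, against 194, 126.4, 102.8, 137.9 and 96.2 CPM on SPF day 16 and 130.8, 145.4, 110.97, 134.2 and 137.8 CPM on SPF day 44. Every day 2 library was below every SPF library. Cr2 differed by −0.67 ± 0.10 (adjusted p = 0.00025), by −0.67 ± 0.12 against SPF day 16 and by −0.67 ± 0.12 against SPF day 44. Fcer2a, the low-affinity IgE receptor CD23, fell by 0.30 ± 0.08 and Cxcr5, the receptor that guides B cells into follicles, by 0.36 ± 0.10. Their adjusted p-values were 0.035 and 0.039, and their calls were lost without any 1 of 11 and 9 of the 20 libraries. The list's count of falls was 1 without SPF day 16 replicate 5, without SPF day 44 replicate 2 or 4, and without day 2 replicate 2, 4, 8 or 9. General B cell genes were not called, among them Ms4a1 (CD20) at 0.01 ± 0.14 and Cd79b at 0.01 ± 0.11. Summed over the list, the level was 1117 to 1656 CPM on day 2 and 1329 to 2003 CPM in the SPF libraries.

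Of 12 plasma cell and immunoglobulin genes tested (15 in the list) 1 rose and 1 fell, where 2.59% and 1.07% of all genes did. Jchain, which joins IgA and IgM into polymers, had 12.5 to 20.5 CPM, with a median of 16.9, on day 2, against 2.28, 3.89, 2.89, 2.16 and 13.9 CPM on SPF day 16 and 13.1, 2.46, 13.9, 7.11 and 4.85 CPM on SPF day 44. Among the SPF libraries, 1 on day 16 and 2 on day 44 reached the day 2 range. Jchain differed by 1.36 ± 0.34 (adjusted p = 0.031), a call that was lost without SPF day 44 replicate 5 (adjusted p = 0.059) or day 2 replicate 4. It was called against neither SPF day alone. Ighd, the IgD heavy chain of mature B cells, fell by 0.39 ± 0.09 (adjusted p = 0.015). Of 10 MHC class II genes 1 fell. H2-DMb1, which helps load peptides onto class II molecules, had 11.1 to 19.3 CPM, with a median of 14.4, on day 2, against 20.2, 18.9, 19, 17.9 and 22.5 CPM on SPF day 16 and 19.1, 19.6, 18.6, 20.6 and 18.4 CPM on SPF day 44. Among the day 2 libraries, replicate 10 alone (19.3 CPM) reached the SPF range. H2-DMb1 differed by −0.41 ± 0.08 (adjusted p = 0.0043). All 10 class II genes had a negative difference (median −0.26), and 3 of them were called without SPF day 16 replicate 1, without SPF day 44 replicate 1 or without day 2 replicate 6. Of 12 MHC class I genes H2-Q7 fell, by 0.50 ± 0.12 (adjusted p = 0.021). It has close copies with which it may share reads. None of the 12 class I genes had a positive difference either (median −0.23).

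**Figure D3:**
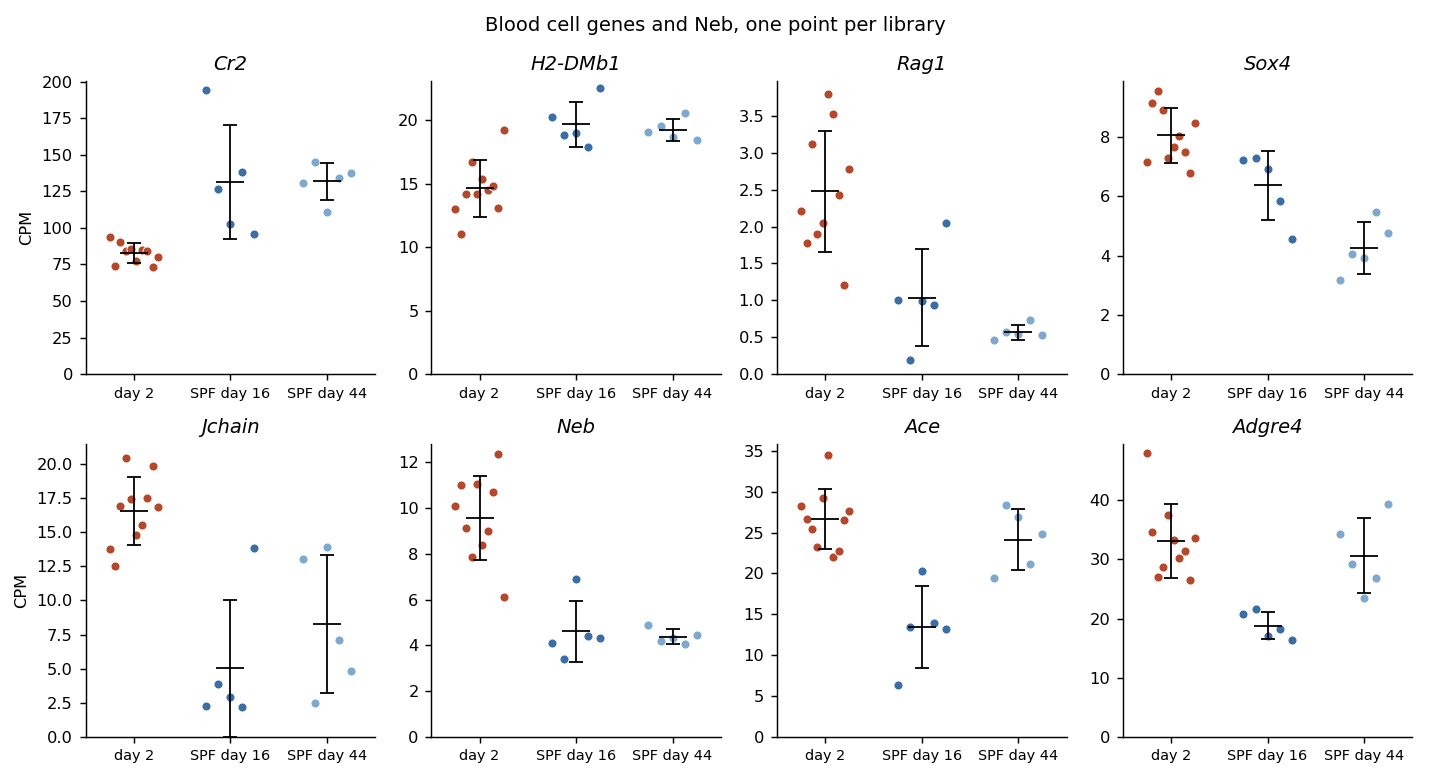
Level of 8 genes in each library, in CPM from 0 on the vertical axis, for day 2 (10 libraries), SPF day 16 (5) and SPF day 44 (5), with mean and SD. Cr2 and H2-DMb1 are lower on day 2 than on either SPF day, Jchain and Neb are higher, Rag1 and Sox4 step down over the 3 groups, and Ace and Adgre4 are low on SPF day 16 alone.

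Red cell genes were called mainly against SPF day 44. Of 26 erythroid genes tested 1 rose against all SPF, 0 against SPF day 16 and 11 against SPF day 44, with medians of 0.18, −0.17 and 0.55. Over all genes tested 2.59%, 0.527% and 3.84% rose in the same comparisons. SPF day 16 replicate 3, the library of high globin share, had the highest erythroid sum of the 20. Tal1, a transcription factor of red cell and megakaryocyte precursors, had 21.9 to 31.9 CPM, with a median of 27.2, on day 2, against 18.3, 21.4, 25.8, 20.5 and 16.3 CPM on SPF day 16 and 20.5, 15.5, 17.9, 16 and 17.7 CPM on SPF day 44. The lowest day 2 libraries lay inside the SPF day 16 range. Tal1 differed by 0.50 ± 0.09 (adjusted p = 0.0013). None of 6 globin genes was called, the smallest p being that of Hba-a1 (−1.86 ± 0.79). Hba-a1 had 7067342 counts over the SPF day 16 libraries, 509379 over SPF day 44 and 1253838 over day 2. The median difference of the globin genes was −0.73, but it reached 0.31 in a fit with 1 library or SPF number left out.

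Of 17 proliferation genes tested 2 rose, against 2.59% of all genes. These were the cell cycle genes Ccna2 (0.50 ± 0.13) and Cdk1 (0.62 ± 0.17), and both calls were lost without SPF day 44 replicate 2. In this list 0 genes rose against SPF day 16 alone and 4 against SPF day 44 alone. Over all genes 0.527% and 3.84% rose in these comparisons. Ccna2 had 37.1 to 82.3 CPM, with a median of 42.1, on day 2, against 43.2, 43.4, 34.2, 49.3 and 41.7 CPM on SPF day 16 and 34.4, 19.1, 24.2, 29.2 and 21.8 CPM on SPF day 44, so day 2 and SPF day 16 lay in the same range apart from day 2 replicate 4. Of 23 histone genes that are made in S phase, 4 rose and none fell (median 0.33), against 2.59% and 1.07% of all genes. The number that rose was 7 without SPF day 16 replicate 5 or without SPF day 44 replicate 3. It was 1 against SPF day 16 alone and 7 against SPF day 44 alone. H1f5, a linker histone, had 4.25 ± 0.847 CPM on day 2 (SD, n = 10), against 1.99 ± 1.15 on SPF day 16 and 1.71 ± 0.224 on SPF day 44 (n = 5 each), a difference of 1.21 ± 0.20 (adjusted p = 0.00071). The core histone genes H3c2, H3c3 and H2bc3 rose by 0.86 ± 0.18, 0.88 ± 0.18 and 0.59 ± 0.15, and histone copies are near identical, so their separate values are uncertain. Among 17 genes of amino acid stress and one-carbon metabolism 3 rose, where 2.59% of all genes did. Against SPF day 16 alone 0 of them rose, and against SPF day 44 alone 4. Ddit4, an inhibitor of mTORC1 that is also on the glucocorticoid list, rose by 0.89 ± 0.17, and Psat1, an enzyme of serine synthesis, by 0.44 ± 0.10. The mitochondrial folate enzyme gene Aldh1l2 was counted 282 times on day 2 and 30 times in the SPF libraries.

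Innate genes were mostly not called against all SPF, and those called were lower on day 2 apart from Ace and Adgre4. Of 16 receptors for microbial patterns 2 fell and none rose (median −0.40), with 6 lower against SPF day 44 and 0 against SPF day 16. Over all genes 1.07% were lower against all SPF, 3.15% against SPF day 44 and 0.104% against SPF day 16. The count of 2 was 0 without any 1 of 7 libraries (SPF day 16 replicates 2 and 5, SPF day 44 replicates 2 and 5, day 2 replicates 3, 4 and 8) and 1 without any 1 of 7 others. Nlrp3, the inflammasome sensor, had 3.98 to 9.74 CPM, with a median of 7.76, on day 2, against 4.70, 12.2, 13.8, 7.07 and 13.1 CPM on SPF day 16 and 13.6, 23.9, 16, 10.03 and 15.1 CPM on SPF day 44. It differed by −0.75 ± 0.20 (adjusted p = 0.035), and Tlr4, the endotoxin receptor, by −0.41 ± 0.11 (adjusted p = 0.041). Their calls were lost without any 1 of 10 and 12 of the 20 libraries. Of 20 mature neutrophil genes 1 fell, Hcar2, the niacin receptor (−0.84 ± 0.20, adjusted p = 0.018). Summed over that list, the level was 422 to 2065 CPM on day 2 and 469 to 2096 CPM in the SPF libraries, highest in SPF day 16 replicate 5 and day 2 replicate 7. Of 10 dendritic cell genes tested Cd209a, a lectin of monocyte-derived dendritic cells, fell by 1.30 ± 0.21 (adjusted p = 0.00056). It had 0.437 to 1.90 CPM, with a median of 1.5, on day 2, against 1.82, 3.11, 3.02, 3.14 and 2.36 CPM on SPF day 16 and 3.36, 3.66, 4.77, 2.89 and 5.24 CPM on SPF day 44.

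Ace and Adgre4 were called between the SPF days, and these calls too were lost without any 1 of the 5 SPF libraries named for Col10a1. Ace, which encodes angiotensin-converting enzyme and is on the list for its expression in patrolling monocytes, was the single monocyte gene of 16 that rose. It had 22 to 34.5 CPM, with a median of 26.6, on day 2, against 6.30, 13.5, 20.4, 13.9 and 13.2 CPM on SPF day 16 and 19.5, 28.4, 26.9, 21.2 and 24.8 CPM on SPF day 44. All day 2 libraries were above SPF day 16 and overlapped SPF day 44. The differences were 0.57 ± 0.14 against all SPF (adjusted p = 0.019), 0.99 ± 0.17 against SPF day 16 (adjusted p = 0.0075) and 0.14 ± 0.17 against SPF day 44 (adjusted p = 0.67). Ace rose by 0.85 ± 0.19 in SPF day 44 minus SPF day 16 (adjusted p = 0.049). Adgre4, an adhesion receptor of myeloid cells and the single eosinophil list member of 9 that rose, showed the same order, with 0.81 ± 0.13 against SPF day 16, 0.11 ± 0.13 against SPF day 44 and 0.70 ± 0.15 between the SPF days. The eosinophil receptor Ccr3 was not called (−0.46 ± 0.35) and neither was Siglecf (−0.51 ± 0.38). Zfyve9, an anchor protein of the TGF-beta pathway, had 16.4 ± 1.80 CPM on day 2 (SD, n = 10), against 9.44 ± 0.538 on SPF day 16 and 15.7 ± 3.27 on SPF day 44 (n = 5 each). It rose by 0.80 ± 0.11 against SPF day 16 (adjusted p = 0.0018) and was not called against SPF day 44.

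The largest falls were smaller than the largest rises. Vmn2r96, a member of the vomeronasal receptor family with close copies, had 0.957 to 2.77 CPM, with a median of 1.55, on day 2, against 6.30, 3.34, 1.85, 2.39 and 2.90 CPM on SPF day 16 and 5.29, 7.14, 3.72, 4.44 and 6.59 CPM on SPF day 44. It differed by −1.41 ± 0.21 (adjusted p = 0.00033) and was called against each SPF day. Clvs1, a lipid-binding protein, fell by 1.21 ± 0.31, the epithelial keratin Krt7 by 1.17 ± 0.30, Rab20, a GTPase of phagosomes, by 1.15 ± 0.25, and Olfm1, a secreted glycoprotein, by 1.04 ± 0.27. The p38 kinase gene Mapk12 fell by 1.00 ± 0.19, Kdm6b, a histone demethylase induced in activated macrophages, by 0.97 ± 0.23 and Tnfrsf1a, the TNF receptor, by 0.90 ± 0.23. None of these 7 was called against SPF day 16 alone. Day 2 replicates and SPF day 16 replicates overlapped in each.

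In 14 of the 39 lists no member was called against all SPF. These were the globins and the lists of T cells (18 tested), regulatory T cells (9), NK and cytotoxic cells (14), platelets (16), basophils and mast cells (12), neutrophil precursors (5), type I interferon-stimulated genes (31), cytosolic ribosomal proteins (28), the circadian clock (16), immediate early genes (19), fatty acid oxidation (15), cholesterol synthesis (17) and the itch and type 2 cytokine axis (14). A gene that was not called is not shown to be alike in both groups. Their members with the smallest p lay at −0.28 ± 0.09 for the T cell factor Lef1, 0.54 ± 0.16 for the integrin Itgae, −0.32 ± 0.13 for perforin (Prf1), 0.34 ± 0.13 for the platelet receptor Gp5, −0.70 ± 0.23 for the growth factor Csf1, 1.02 ± 0.55 for the granule gene Ngp, −0.31 ± 0.09 for Stat2 and 0.19 ± 0.08 for Rpl15. For Dbp, Ier2, Acaa2, Srebf2 and Stat6 the differences were 0.56 ± 0.21, −0.77 ± 0.23, 0.27 ± 0.09, −0.38 ± 0.17 and −0.34 ± 0.10. Against SPF day 44 alone 4 of the 18 T cell genes and 5 of the 31 interferon-stimulated genes were lower, where 3.15% of all genes were lower. Of the lists not described above, single members fell against all SPF. These were Irf1 among 15 genes induced by interferon gamma (−0.30 ± 0.07), the chemokine receptor Ccr6 among 12 of effector and memory T cells (−0.34 ± 0.09) and Herpud1, of the unfolded protein response, among 19 heat shock and stress genes (−0.43 ± 0.10). Among 15 glucocorticoid-responsive genes only Ddit4 was called. Without SPF day 16 replicate 3, the number called higher was 4 of 16 platelet genes.

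**Figure D4:**
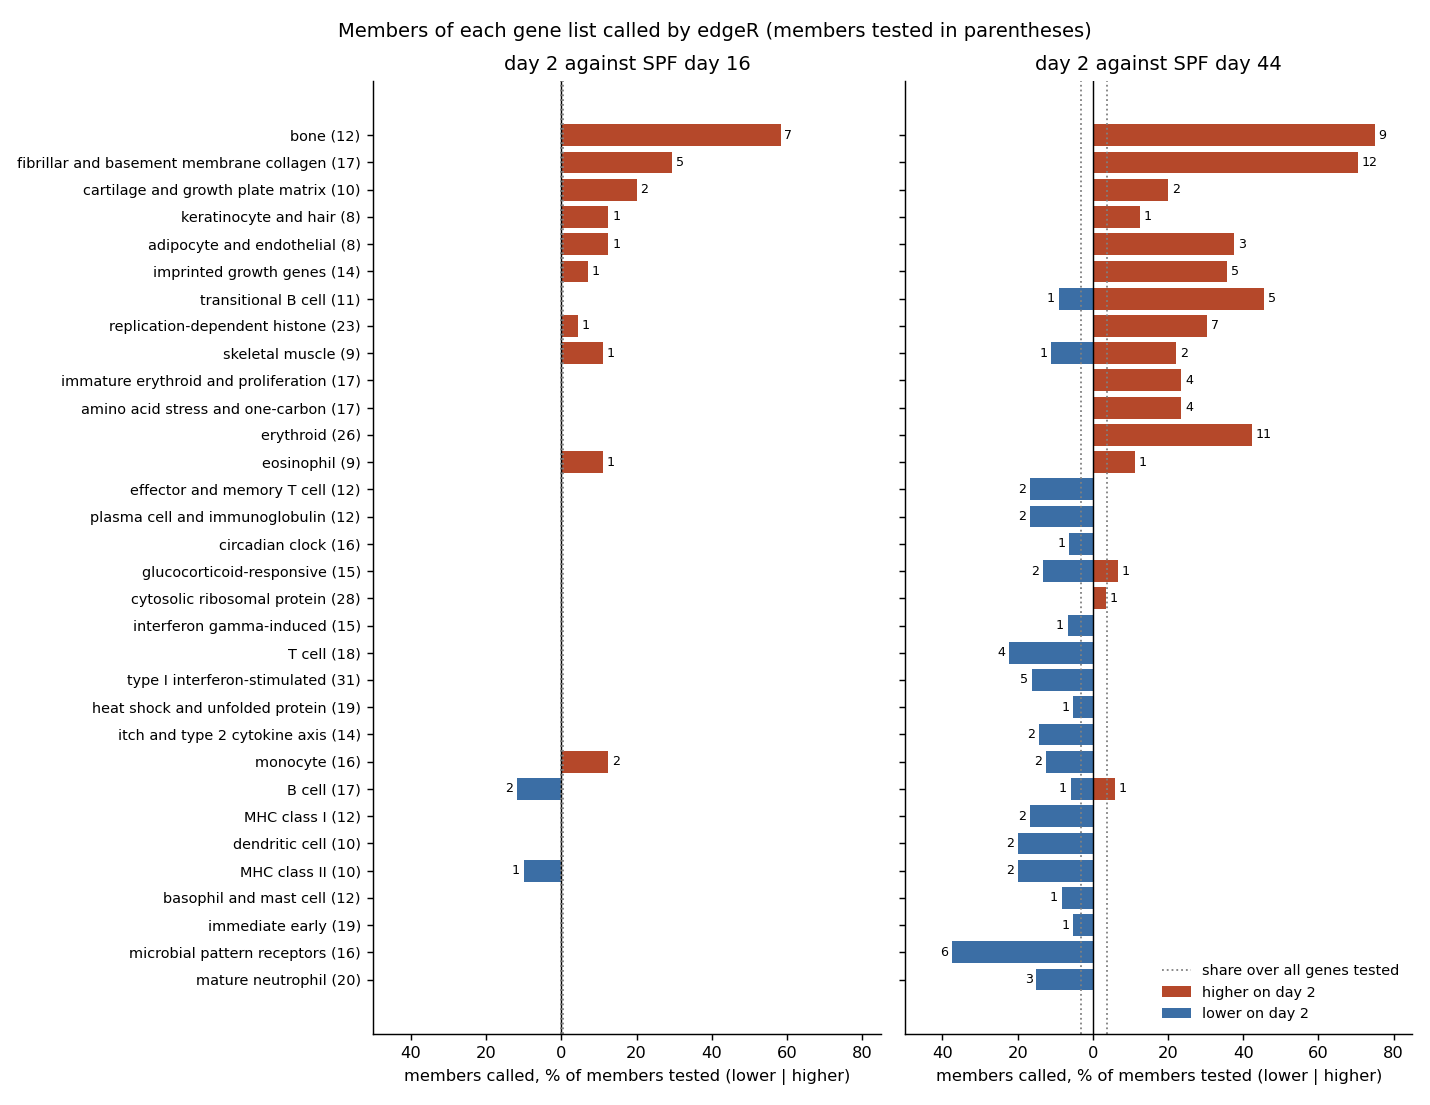
Share of the tested members of each gene list (tested members in parentheses) called by edgeR as higher on day 2 (to the right) or lower on day 2 (to the left), in percent, against SPF day 16 and against SPF day 44. Numbers are genes called and dotted lines give the share over all genes tested. Bone and collagen genes lead in both panels, and most lower calls are against SPF day 44.

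Libraries of the other conventional groups, none of which entered the tests, show where these levels stood later. Medians here are CPM on the scaling of all 190 libraries, and each conventional day is the first sampling of a different cohort. Some of these mice had visible dermatitis from day 12 on, and scores were 0.5 to 3 on conventional day 30. Mitochondrial rRNA took 4.57% to 12.1% of the counts on day 2 and 3.54% to 22.1% on conventional day 30. For globin genes it was 2.70% to 6.57% and 0.728% to 10.6%. Whether dermatitis or library composition shaped these medians was not tested. Col10a1 had medians of 6.75, 3.22, 1.85, 1.77, 0.935, 0.163, 0.0407, 0.129 and 0 CPM in conventional mice on days 2, 5, 9, 12, 16, 19, 23, 26 and 30, against 0.693 CPM on SPF day 16 and 0.0666 CPM on SPF day 44. On day 16 the conventional and SPF medians were thus close, and day 2 was highest. H19 had 2.60, 2.07, 0.554, 0.579, 0.446, 0.378, 0.266, 0.119 and 0.122 CPM on the same days, against 0.243 and 0.0832 CPM on SPF days 16 and 44, and Rag1 had 1.79, 0.853, 0.781, 0.515, 0.494, 0.322, 0.0806, 0.150 and 0.0375 CPM, against 0.748 and 0.416 CPM on SPF days 16 and 44. These 3 genes had lower medians at each later first sampling, up to day 30, than on day 2. The later samplings of the conventional cohorts, on days 40 and 44, are not given here.

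Neb, Jchain and Cr2 took another course. Neb had medians of 7.36, 6, 7.33, 7.88, 7.05, 8.06, 8.94, 8.75 and 10.4 CPM in conventional mice over the 9 days, each above 3.26 CPM on SPF day 16 and 3.33 CPM on SPF day 44. For Jchain they were 12.7, 12.2, 11.2, 11.7, 10.5, 7.84, 11.8, 11.5 and 10.1 CPM, each above 2.22 and 5.54 CPM on SPF days 16 and 44. Cr2 was lower in each conventional first sampling, with medians of 63.9, 59.2, 79.3, 71.8, 72.4, 79, 43, 84.2 and 65.3 CPM against 99.4 and 104.6 CPM on SPF days 16 and 44. The labels give the SPF libraries no cohort, so housing and cohort cannot be told apart here either. Ace had 20.4 and 27.3 CPM on conventional days 2 and 5 and 8.18 to 10.3 CPM on days 9 to 30, against 10.6 and 19 CPM on SPF days 16 and 44. Tlr4 had 12.5, 14.6, 22.4, 36.3, 29.2, 38.1, 80.4, 49.1 and 64.7 CPM over the conventional days, against 15.5 and 20.8 CPM on SPF days 16 and 44, so its day 2 median was the lowest of these groups.

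**Figure D5:**
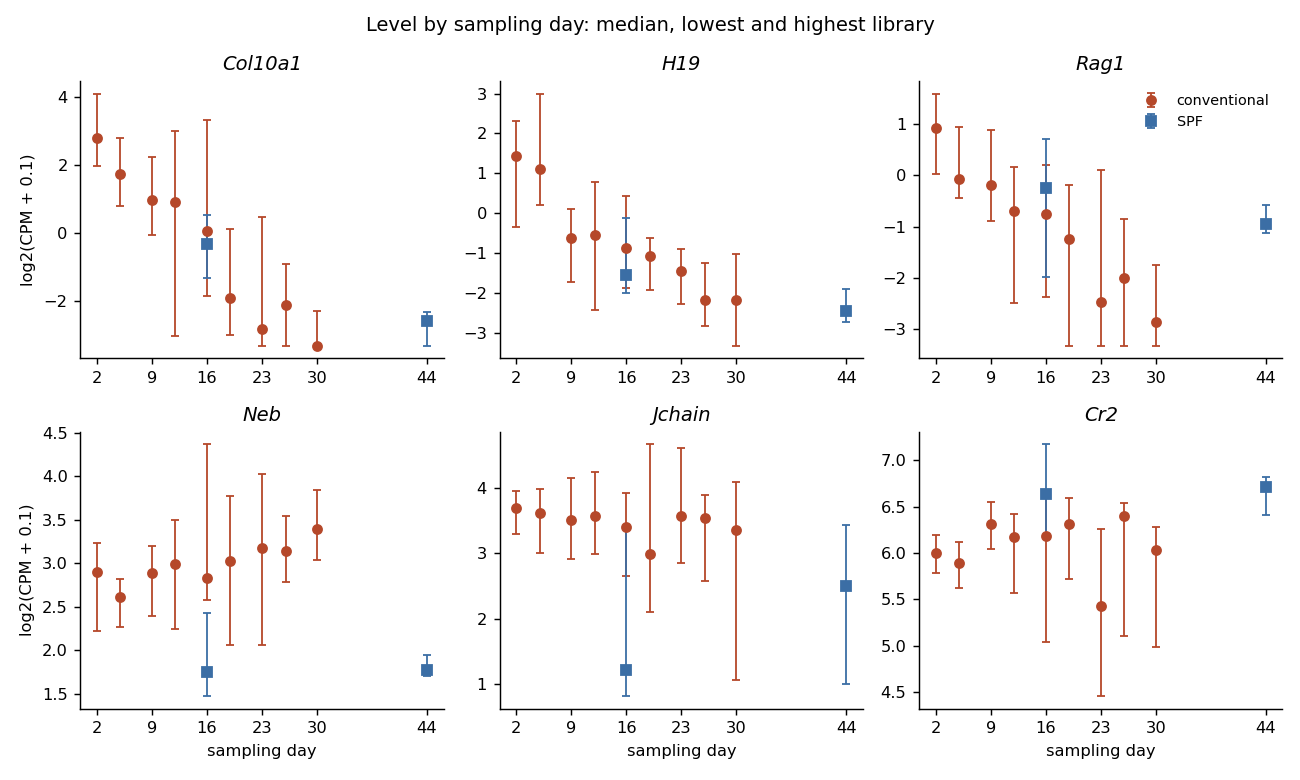
Median (marker) and lowest to highest library (bars) of 6 genes by sampling day, as log2(CPM + 0.1), in conventional mice at first sampling (circles, days 2 to 30, 10 libraries each) and SPF mice (squares, days 16 and 44, 5 libraries each). Some conventional mice had dermatitis from day 12 on. Col10a1, H19 and Rag1 are highest on day 2, whereas Neb and Jchain lie above and Cr2 below both SPF medians on every conventional day shown.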

How the data were processed

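Whole blood RNA of NC/Nga mice was sequenced from stranded total RNA libraries depleted of rRNA and globin RNA, per the labels' protocols. The submitters' processing notes name DRAGEN and the build GRCm39. The deposited tables give an expected count per gene, made by the authors for all 190 libraries and 55414 genes, and deposited TPM values for the same libraries, which the authors scaled per gene length. Every value column belonged to a library of the series. Of the expected counts, 2.86% of the values were not whole, so all were rounded.

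The 20 libraries were fitted as 3 groups with edgeR 4.0.16 in R 4.3.3 (TMM, filterByExpr with a minimum count of 10 and a minimum total of 15, robust quasi-likelihood F test, two-sided, Benjamini-Hochberg adjustment). The difference against all SPF is day 2 minus the mean of both SPF days, and SE is the log2 difference divided by the root of F. Members and gene lists were chosen with earlier results of these data known. Named genes are the 10 largest rises and falls of protein-coding genes with at least 1 CPM in the higher group and 1 sign against both SPF days, up to 4 called members of each list, or, with none called, the member with the smallest p, and the 3 smallest p against each SPF day. Other list members were named to show ones that were not called. TPM values were tested as log2(TPM + 1) with limma 3.58.1, and DESeq2 1.42.0 was an alternative. No pair of libraries agreed within counting noise (lowest chi-square per degree of freedom 31.0). Permutation tests used scipy 1.17.1. The procedure was tested on simulated data. The depth stated with the results limits genes of few counts. For some of them summed counts are given in place of a fold. Others keep a log2 difference, such as Sp7 with 275 counts on day 2 and 21 in the SPF libraries. Promoter windows were read from RefSeq on GRCm38.p6. The alternatives were other scalings, filters, tools, samples in the fit, blocks, covariates and libraries left out.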

Additional observations from a re-analysis of the deposited data

Results flagged for a closer look

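Single libraries stood far from the others of their group in 16 of 204 sets of values tested, of which chance alone would give about 1 in 20. On day 2 these were Ccna2 at 82.3 CPM in replicate 4 and H2bc3 at 3.83 CPM in replicate 1. On SPF day 16, replicate 3 had a globin share of 45.3% and was the lowest of its group in Col1a1 (3.02 CPM) and Col1a2 (6.45 CPM). Also on SPF day 16, Jchain was at 13.9 CPM and Krt25 at 0.191 CPM in replicate 5, H19 at 1.04 CPM and Dmp1 at 0.13 CPM in replicate 2, Col22a1 at 0.51 CPM in replicate 4 and Krt17 at 0.0439 CPM in replicate 1. On SPF day 44, Mapk12 was at 2.53 CPM and Ibsp at 0.0723 CPM in replicate 3, Bglap2 at 0.136 CPM and Dmp1 at 0.0542 CPM in replicate 1, and Krt25 at 0.0952 CPM in replicate 4. Values of Krt17, Krt25, Dmp1, Bglap2 and Ibsp in SPF libraries rest on very few counts.

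Among the named genes, 4 differed between the comparisons with the SPF days by edgeR's test of the difference itself (SPF day 44 minus SPF day 16, log2). Col10a1 differed by −3.85, Ace by 0.851, Zfyve9 by 0.735 and Adgre4 by 0.703. All 4 calls were lost without any 1 of 5 SPF libraries (day 16 replicates 4 and 5, day 44 replicates 1, 2 and 5), where no gene was called between the SPF days. For Col10a1 both comparisons were called in the same direction. For Ace, Zfyve9 and Adgre4 the comparison with SPF day 16 was called and that with SPF day 44 was not.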

How the results depend on the processing

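For named genes, 2735 recomputed values kept direction and side of the threshold, 299 kept the direction and lost the call, 40 gained one and 0 turned round. Calls against all SPF, against SPF day 16, against SPF day 44 and between the SPF days made up 3.66%, 0.631%, 6.99% and 0.631% of the genes tested. In that order DESeq2 gave 3.17%, 0.772%, 5.71% and 1.89% of 28870 genes with a count (916, 223, 1649 and 545 genes). The fit of all 190 libraries gave 1.08%, 0.0715%, 1.15% and 0.0275% of 18192 genes, and globin and mitochondrial rRNA shares as covariates gave 7.42%, 1.18%, 15.9% and 4.11%. With limma on TPM it was 0.112%, 0.0562%, 14.1% and 21.6% of the 7120 genes that its filter kept, and 2 of 8 collagen and 1 of 5 bone genes kept were higher against all SPF. The cause of these shifts was not tested. DESeq2 size factors in edgeR gave 0.273% between the SPF days. Against all SPF, no filter on low counts (519 genes), TMM without globin, mitochondrial rRNA and Rn7s genes (560), SPF as 1 group (382) and SPF libraries of a number summed (400) stayed within 1.5 times 563. A replicate block joined day 2 and SPF libraries of the same number, although no label pairs them. Day 2 replicates 6 to 10 had no SPF library in their blocks and so added nothing to the differences from SPF. This block gave 1.02%, 0.15%, 4.1% and 1.74%, with 4 of 17 collagen genes and 8 of 12 bone genes higher against all SPF. A random replicate block, with each SPF number as 1 mouse, gave 2.5%, 0.234%, 8.08% and 3.2%. Same-numbered SPF libraries of day 16 and day 44 had correlations of −0.18 to 0.126, so the numbers do not show pairing, and no SPF day 44 library correlated best with its own number. Leaving out 1 library gave 2.17% to 4.34%, 0.255% to 0.75%, 1.93% to 9.14% and 0% to 3.69%. Leaving out SPF number 2 on both days gave 2.19%, 0.308%, 1.8% and 0%. Without number 4 it was 0.281% against SPF day 16 and 0.00639% between the SPF days. Without number 5 it was 0.367% against SPF day 16, 2.82% against SPF day 44 and 0% between the SPF days, which without numbers 1 and 3 gave 2.41% and 1.1%. The SPF comparison, whose spread the day 2 libraries share, also gave 45 and 195 genes without SPF day 16 replicates 2 and 3, 292 and 247 without SPF day 44 replicates 3 and 4, 372 without day 2 replicate 4, and 16 to 38 without any other day 2 replicate but 1. Without the 4 libraries high in muscle genes, chosen after seeing the data, the values were 3.76%, 0.267%, 10% and 3.12%. The composition differences kept adjusted p-values above the threshold in each setting run. Calls were lost without any 1 of 12 libraries for Cdk1, 8 for Ccr6, 9 for Olfm1, 7 for Tnfrsf1a, 6 for Krt5, 5 for Krt7, 4 for Ccna2, 2 for Clvs1 and H2bc3 and 1 for Irf1.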
